A study of Mus musculus with 24 samples.

Results

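The cytosolic ribosomal protein genes were taken from the expression table of adult mouse dorsal root ganglia (DRG, which hold the cell bodies of the sensory neurons of the body) by their symbols. The rule took protein-coding genes named Rpl or Rps with a number, with Rpsa, Rplp0, Rplp1 and Rplp2, and left out pseudogenes and the Rps6k kinases. It found 84 genes of the 37620 in the table, 51 of the large and 33 of the small subunit. All 84 were protein coding in the annotation, 80 lay on autosomes and 4 on the X chromosome. The rule itself reads symbols and no measured value. The table listed reads for 83 of them in at least 1 sample and for 73 in all 24 samples.

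The 24 samples were ganglia of untreated C57Bl6 mice aged 6 to 8 weeks, with the nerve roots cut away. Lumbar samples held the ganglia L4 and L5 and sacral samples held L6 and S1. Males gave 5 lumbar and 5 sacral samples and females gave 7 of each, with no altered allele and no agent in any group. By their numbers the samples came from 13 mice, of which 11 gave both levels. Whole ganglia were used, so neurons, glia, vessels and blood cells are all in each sample.

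Ribosomal proteins assemble with ribosomal RNA into the small subunit, which reads the mRNA, and the large subunit, which joins the amino acids. Most are needed in every cell, and their mRNAs share a pyrimidine tract at the first bases (the terminal oligopyrimidine or TOP motif) through which the mTOR pathway sets their translation. In sensory neurons ribosomal proteins are known both in the cell body and for local protein synthesis in axons. A few members have a paralogue used in other tissues, such as Rpl3l in striated muscle and Rpl10l in testis. In mammalian genomes most of these genes also have many processed pseudogenes, copies of the spliced mRNA inserted elsewhere.

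Those copies bear on how the genes can be counted, because the authors kept only reads that aligned to 1 place in the genome. The coding sequence of each gene was therefore searched against mm9, the build of the study. The search found 2024 copies with at least 80% identity over at least 60% of the coding sequence, with a median of 17.5 copies per gene and 163 for Rpl7a. Only Rpl8 and Rpl3l had none. In the median gene 89.2% of all 50-base windows of the coding sequence had an exact copy elsewhere, and in 28 genes every window did. The length of the reads is not given in the sources used here, so the share of reads that could not be placed was not computed. The coding windows that follow show an identical copy, a nearly identical one and one that differs more. Each shows 60 bases of the gene around its first difference from the copy, or from the start codon, and capitals mark the bases that differ.

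Rpl10a, coding bases 1 to 60 of a gene at chr17:28465416-28467977 (plus strand), is shown because its closest copy was identical over all 654 coding bases, and the copy Rpl10a-ps1 is shown from chr1:65041119-65041178 (minus strand).
Rpl10a: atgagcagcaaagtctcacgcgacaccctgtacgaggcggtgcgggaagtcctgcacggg
Rpl10a-ps1: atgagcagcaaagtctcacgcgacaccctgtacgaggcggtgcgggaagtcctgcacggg

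Rpl3, coding bases 27 to 86 of a gene at chr15:79908211-79913836 (minus strand), differed from Rpl3-ps1, shown from chrX:12779724-12779783 (plus strand), at 2 of 1212 aligned positions, 1 of which lies in this window.
Rpl3: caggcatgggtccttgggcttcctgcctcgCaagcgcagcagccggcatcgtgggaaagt
Rpl3-ps1: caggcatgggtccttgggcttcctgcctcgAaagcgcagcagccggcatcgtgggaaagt

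Rpl4, coding bases 14 to 73 of a gene at chr9:64021194-64026369 (plus strand), is shown because its level was the highest of the genes when copies are not added, and its closest copy, which has no annotated gene in the table and is shown from chr1:144991111-144991170 (minus strand), differed at 39 of 1263 aligned positions and at 1 in this window.
Rpl4: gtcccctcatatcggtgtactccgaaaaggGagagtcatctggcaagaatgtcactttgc
Unnamed copy: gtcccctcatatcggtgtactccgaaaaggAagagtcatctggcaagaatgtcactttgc

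The reads of genes and copies were compared next. Values were deposited as log2 RPKM (reads scaled by gene length and library size), and reads were estimated from them with the gene length and the recovered library size. Rpl10a, a large subunit protein, had 200.9 reads in the mean of 24 samples, whereas Rpl10a-ps1 had 3166. Rpl3, which lies near the site of peptide bond formation, had 57.0 reads and its copy Rpl3-ps1 had 1719. Rpl4 had 4139 reads, and its copies lie in no annotated gene, so their reads were not counted in the table. For Rpl10a and Rpl3 the annotated pseudogene thus held most of the reads.

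The annotation named 962 genes at these copies, 768 of them pseudogenes, and 732 had reads. Summed over the library, the 84 genes held 15388 to 31552 reads per sample and the 962 copy genes held 21243 to 38949. The copies held 58.4 ± 1.52% of the joint reads (SD, n = 24), with a range of 55.3% to 61.4%. They held more reads than the gene itself for 55 of the 83 genes seen. The largest single copies were Rpl10a-ps1, Gm15500 (a copy of Rpl5, 2191 reads against 851.8 for the gene), Gm13654 (of Rps6, the S6 kinase substrate, 1847 against 94.3), Rpl3-ps1 and Gm8759 (of Rpl31, 1418 against 97.9). The coding sequence was copied with 100% identity in all of these but Rpl3-ps1, where identity was 99.83%. Whether these reads came from the copies or from the genes was not tested.

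**Figure D1:**
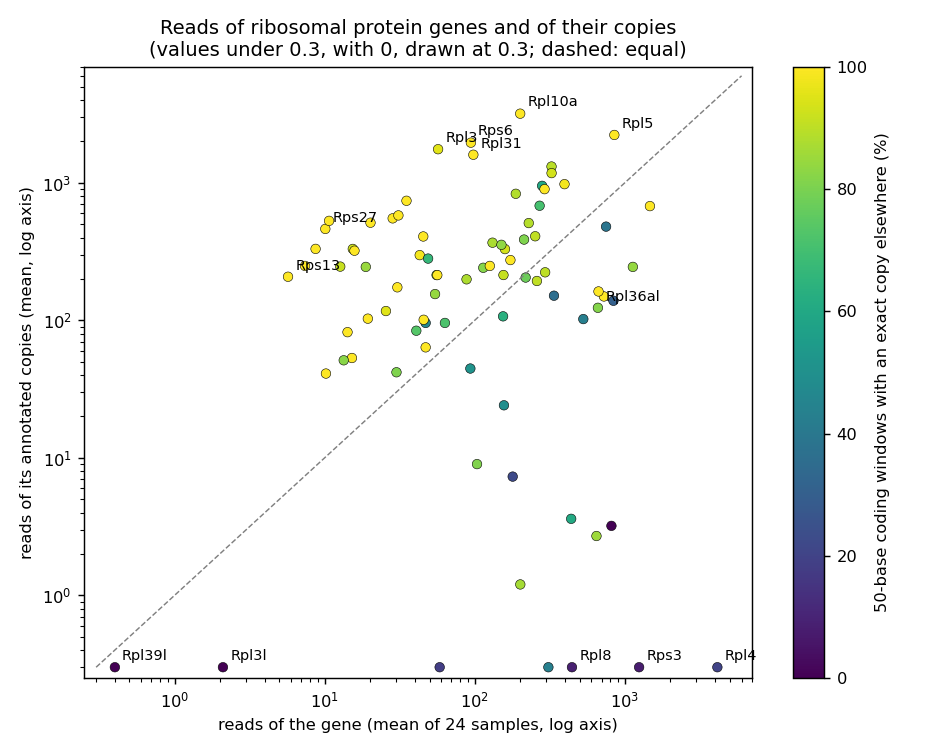
Estimated reads of each ribosomal protein gene (horizontal, log axis) against the summed reads of its annotated copies (vertical, log axis), each as the mean of 24 samples, with values under 0.3 drawn at 0.3. Colour gives the percent of 50-base coding windows with an exact copy elsewhere in mm9, and the genes Rpl4, Rps3 and Rpl8 with few such windows lie at the lower right, while Rpl10a, Rpl3, Rps6 and Rpl31 lie far above the line of equal reads.

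Levels per length differed with the share of copied windows. Over the 83 genes seen the median of the mean log2 RPKM was 1.02, and the range ran from 6.24 to -6.13. The 55 of them that passed the filter described next had a median of 2.00, against 2.02 for all 12650 genes that passed it. The 60 genes with exact copies of over 75% of their windows had a median of 0.46 and a median of 91.2 reads. The 15 genes between 25% and 75% had a median of 2.13 and 270.7 reads. The 8 genes at 25% or less had a median of 1.76 and 311.9 reads, and they included the paralogues Rpl3l and Rpl39l. Across the 83 genes the Spearman correlation of mean log2 RPKM with the share of copied windows was -0.40, a description over genes measured in the same libraries. The annotated exons together were over 3 times as long as the main transcript for 15 of the 84 genes, and RPKM is divided by that length. The Spearman correlation of exon length and level across the 83 genes was -0.07, likewise a description.

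The highest levels of the genes alone were those of Rpl4, Rpl32, Rps15 and Rps25, in this order. A second scale added the copies and divided by coding length in place of exon length (log2 reads per kilobase of coding sequence, scaled by library size). On it the order turned, with Rpl10a (7.06), Rpl39 (6.90), Rpl24 (6.87), Rpl31 (6.86), Rps25 (6.55), Rpl5 (6.47) and Rps15a (6.44) above Rpl4 (6.41). Rps15 was at 5.17 and Rpl32 at 4.76. The parts of copies and divisor in this order were not separated. Rps15a has 6262 bases of exon and 393 of coding sequence, and copies held 17.8% of its joint reads. Rpl4 has 1422 and 1260 bases, and copies held 0%. Rpl4, a large subunit protein that reaches into the exit tunnel, ranged from 5.78 to 6.70 with a median of 6.24 over the 24 samples in log2 RPKM. It has 2 copies in mm9, neither of them in an annotated gene of the table, and 20.2% of its windows were copied. Rpl32 was at 4.41 ± 0.46 and Rps15 at 4.35 ± 0.36 (log2 RPKM, SD, n = 24), which lie within each other's spread. Rps25 was at 3.90 ± 0.23, and the ranges of 1 SD around it and Rps15 overlap. The gap between Rpl4 and Rpl32 was wider than either spread, and the lowest Rpl4 sample lay above the highest Rpl32 sample, at 5.18.

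The lowest levels were those of Rpl3l, Rpl39l, Rps13, Rpl35a and Rps28. Rpl3l had reads in 5 samples and Rpl39l in 1 sample, and Rpl10l in none. Rps13, Rpl35a and Rps28 are ordinary small and large subunit proteins with reads in 20, 22 and 20 samples, and a mean of 5.7, 13.4 and 14.2 reads. A sample without reads was set to the value of 0.5 reads, so the means of these genes depend on that fill. The copies of Rps13 held 97.3% of the reads of gene and copies together, those of Rpl35a 79.3% and those of Rps28 85.3%. Adding the copies and dividing by coding length gave Rps13 a level of 3.55 (log2 reads per kilobase of coding sequence, scaled by library size). On that scale the median over the 83 genes and their copies was 4.54, and 81 of 83 lay above 0.

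**Figure D2:**
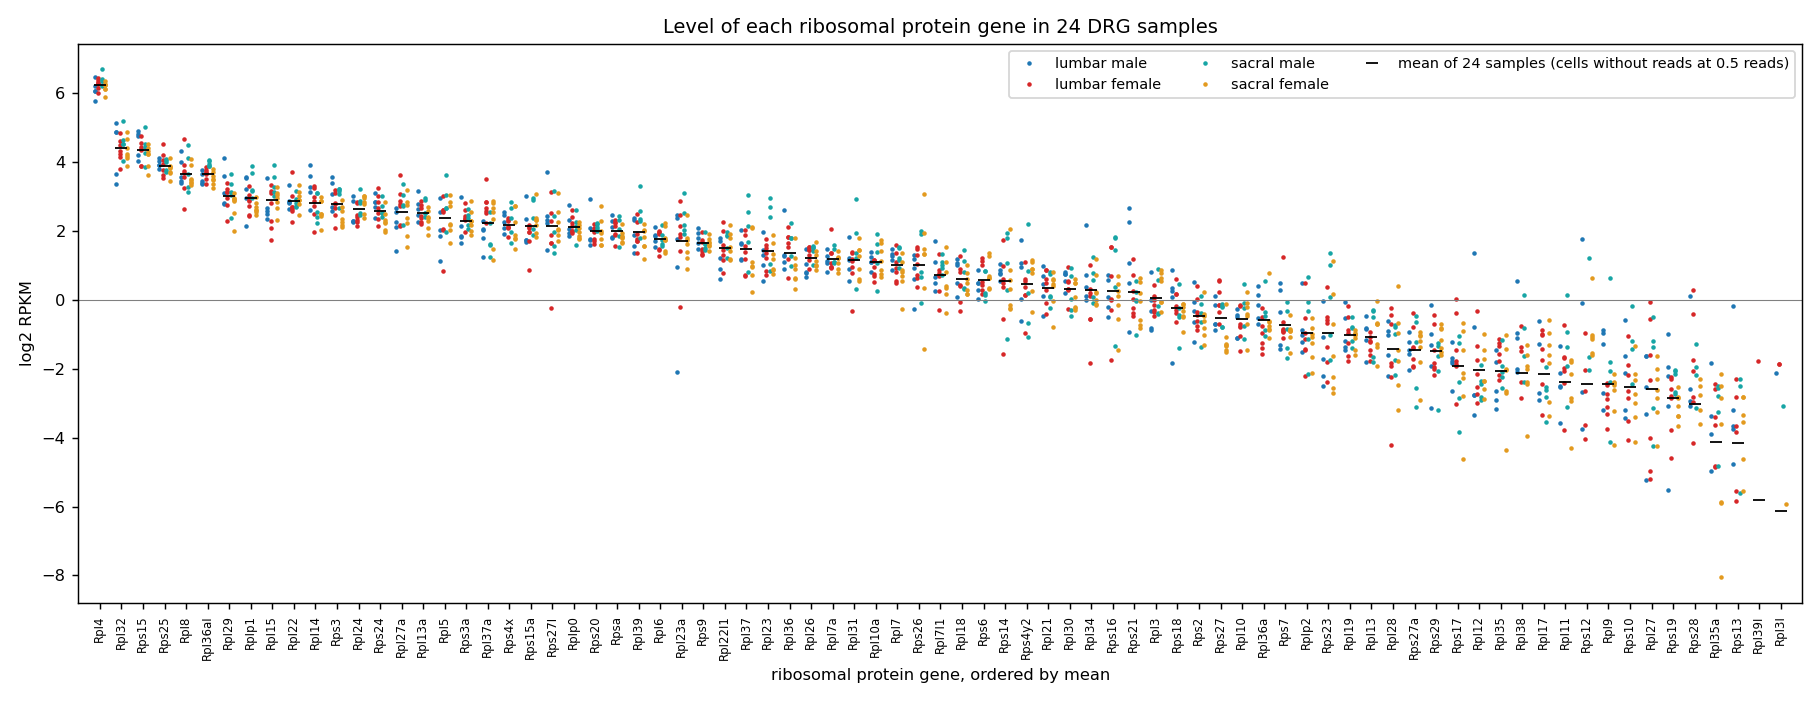
Log2 RPKM of the ribosomal protein genes with reads, without a few that are not reported here, ordered by their mean, with 1 point per sample coloured by group and a bar at the mean of 24 samples. Rpl4 stands above all others at 6.24, and the points spread out toward the genes with few reads at the right.

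As a share of all assigned RPKM the 84 genes held a median of 0.0866% per sample (0.0644% to 0.110%). The mitochondrial genes took 26.01% to 43.42% of the reads, and the median share without them was 0.212%. Both subunits were covered, with a median log2 RPKM of 1.18 for 50 large subunit genes seen and 0.55 for 33 small subunit genes.

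Next, the levels were compared between the groups with limma. The filter asked for a group mean of 0 or more on the log2 RPKM scale in any group, which kept 55 of the 84 genes and 12650 genes in all. A gene was called at a Benjamini-Hochberg adjusted p of 0.05 or less over all genes tested. The 29 genes below the filter were not tested one by one, though some enter the mean over 73 genes and the values with copies added.

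The first comparison asked whether the spinal level changed these genes. None of the 55 genes was called between sacral and lumbar ganglia over both sexes, where 2.44% of all genes tested were called. At an unadjusted p under 0.05 there were 2 of 55, against 14.1% of all genes. The median log2 change over the 55 genes was 0.03 (22 below 0, and 48.3% of all genes below 0), against 0.01 over all genes. The standard errors ran from 0.08 to 0.41, and the 95% interval lay within a 2-fold change in either direction (1 on the log2 scale) for 51 of the 55. The spread of these genes between samples of a group had a median SD of 0.43 on the log2 scale, against 0.49 over all genes.

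The 3 smallest p-values were those of Rpl14, Rpl15 and Rpl24, all of the large subunit. For Rpl14 the lumbar male samples were at 2.62, 3.13, 3.28, 3.60 and 3.91 and the sacral male samples at 2.24, 2.42, 2.54, 3.10 and 3.11 (log2 RPKM). The lumbar female samples ran from 1.99 to 3.32 with a median of 2.86 and the sacral female samples from 2.04 to 2.98 with a median of 2.51. The ranges overlapped in both sexes, and the fitted change was -0.42 ± 0.18 (SE, limma adjusted p = 0.259), or -0.21 with the copies added, which held 71.6% of the joint reads. For Rpl15 the sacral male samples lay at 3.03 to 3.91 and the lumbar male samples at 2.35 to 3.53. Its sacral female samples ran from 2.31 to 3.27 and its lumbar female samples from 1.74 to 3.35, and the ranges overlapped in both sexes. The change of Rpl15 was 0.65 in males and 0.24 in females. Over both sexes it was 0.45 ± 0.19 (SE, limma adjusted p = 0.267), and that of Rpl24, a protein at the bridge between the subunits, was 0.28 ± 0.13 (SE, limma adjusted p = 0.355). For Rpl24 it was 0.15 with the copies added and 0.43 in batch 2 alone. Rpl24 shares its span with Pcnp and Rpl15 with Nkiras1 on the opposite strand, and the sources used here do not say if strand was used in counting.

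Myelinating Schwann cell markers moved with this comparison. All 10 of the markers tested (of 12 listed, 11 of them in the table) had lower values in sacral ganglia and 6 were called, with a median log2 change of -1.18. Their summed RPKM was 2654 to 4854 in lumbar male, 1126 to 2430 in sacral male, 2273 to 5115 in lumbar female and 1553 to 2714 in sacral female samples, and none of the 11 was without reads in all samples. In whole ganglia fewer cells of a type and less RNA per cell cannot be told apart. Of 11 sensory neuron markers 4 were called, with Nefm (-0.52), Nefl (-0.32) and Snap25 (-0.32) lower and Calca (0.44) higher in sacral ganglia. Of 8 satellite glia markers Cdh19 was called as lower (-0.60), but only 3 of the 8 lay below 0 and their median change was 0.07. At an unadjusted p under 0.05 in limma 1 of them was higher and 2 were lower. The 11 macrophage and blood markers had a median change of 0.57, with 0 called by limma and 2 at an unadjusted p under 0.05. The fibroblast and vascular markers had a median change of -0.18 (8 of 10 below 0), with 0 called by limma and 2 at an unadjusted p under 0.05. The part of these in the result was not tested. With the Schwann cell level as a covariate the median change of the ribosomal protein genes was 0.06, and none was called.

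**Figure D3:**
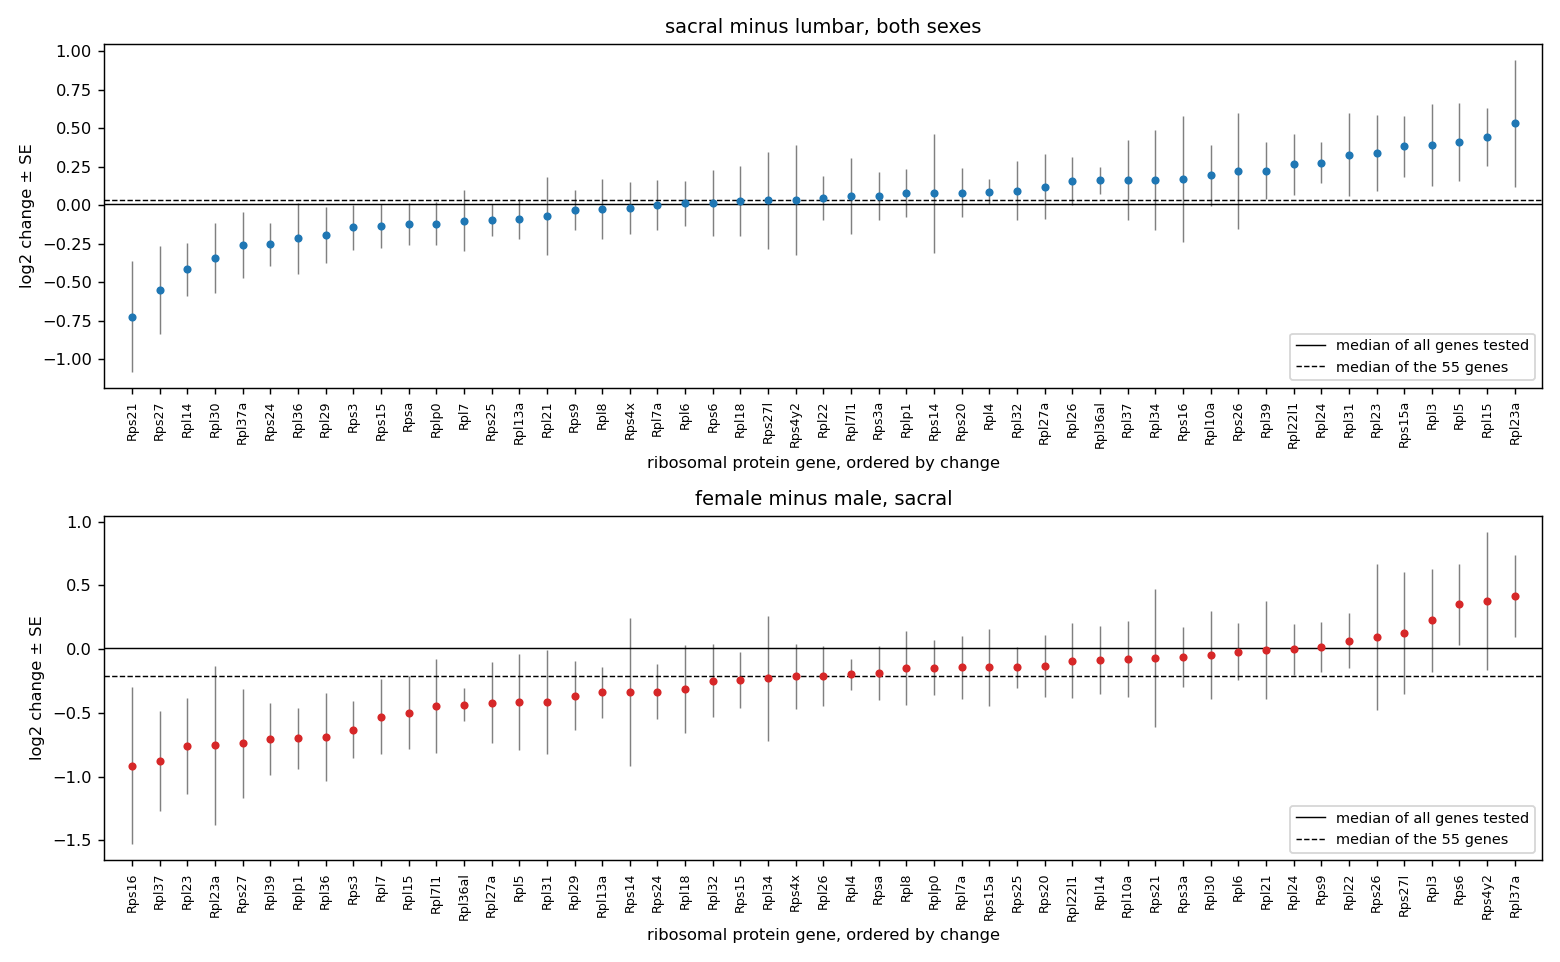
Fitted log2 change with its standard error for the genes tested, without a few that are not reported here, ordered by size, for sacral minus lumbar over both sexes (above) and female minus male in sacral ganglia (below). The dashed line is the median of the 55 genes and the solid line that of all 12650 genes, and the lines lie 0.03 and 0.01 above 0 in the upper panel while the dashed line lies at -0.21 in the lower one.

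Within males no gene of the 55 was called (0.648% of all genes were), with 6 at an unadjusted p under 0.05 (11.2% of all genes) and a median change of 0.05 (22 below 0, and 48.6% of all genes), which was -0.01 without sacral male 11 and 0.12 without sacral male 13. The male ranges did not overlap for 1 gene, Rpl36al (2.51% of all genes). Within females none was called (0.451% of all genes), with 2 at an unadjusted p under 0.05 (8.42% of all genes), and the median change was -0.11 with 36 of 55 below 0 (49.3% of all genes). That median was -0.02 in batch 2 alone and with mouse as a fixed block, and -0.05 without sacral female 23. The female ranges overlapped for all 55 (0.601% of all genes did not), and so did those of both sexes together (0.182% did not). Of the single genes, Rpl36al had the smallest p in males and Rps27 in females, and these were picked out after their values were seen. Rps27, a zinc finger protein of the small subunit, ranged in lumbar female samples from -0.69 to 0.59 with a median of -0.15. In sacral female samples 6 of 7 lay between -1.52 and -1.09 and the other at -0.11, so the ranges overlapped by that sample. The change was -1.15 ± 0.37 (SE, limma adjusted p = 0.261). Rps27 passed the filter only through the lumbar female group, in which it is high, with a group mean of 0.0016 there and of -0.46, -0.41 and -1.15 in lumbar male, sacral male and sacral female samples, so its difference from that group is not independent of the filter. The gene had 10.1 reads in the mean, where its copies had 462, and the change of gene and copies together was -0.35 ± 0.16 (SE, limma adjusted p = 0.528). Fitted with limma without the intensity trend, Rps27 reached an adjusted p of 0.0417, the one call among these genes in any comparison, and it rests on the same filter. With the intensity trend kept, its limma adjusted p was 0.139 without the filter and 0.261 with it. A fit with neither trend nor filter was not run.

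The second comparison asked whether the sexes differed at each level. In lumbar ganglia no gene was called (0.0474% of all genes were), with 1 of 55 at an unadjusted p under 0.05 (7.38% of all genes), and the median female minus male change was -0.08 (35 below 0, and 48.4% of all genes), against 0.01 over all genes. It was -0.04 without lumbar male 11 and -0.14 without lumbar male 15. Macrophage and blood markers had a median change of -0.59 in the same comparison (8 of 11 below 0, 0 called by limma and 4 at an unadjusted p under 0.05), with a summed RPKM of 114.4 to 320.2 in lumbar male and 57.7 to 235.9 in lumbar female samples. Myelinating Schwann cell markers had a median of -0.32 (8 of 10 below 0, 0 called by limma and 1 at an unadjusted p under 0.05). Fibroblast and vascular markers had 0.11 (4 of 10 below 0, 0 called by limma and 3 at an unadjusted p under 0.05). Satellite glia and sensory neuron markers had -0.02 and -0.19, with 1 of 8 and 2 of 11 at that p. The part of these markers in the result was not tested. The ranges overlapped for all 55 genes (0.561% of all genes did not). The smallest p-values were those of Rpl37a, Rpl14 and Rpl27a. Rpl37a, a zinc-binding protein of the large subunit, was at 1.25, 1.78, 2.04, 2.05 and 2.30 in lumbar male samples. The lumbar female samples ran from 2.24 to 3.52 with a median of 2.67, and the highest male sample lay just above the lowest female one. The change was 0.87 ± 0.31 (SE, limma adjusted p = 0.540), or 0.46 ± 0.20 with the copies added. For Rpl14 it was -0.51 ± 0.25 (SE, limma adjusted p = 0.681) and for Rpl27a 0.56 ± 0.30 (SE, limma adjusted p = 0.704), with 0.36 for Rpl27a without lumbar male 13.

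In sacral ganglia no gene was called either (0.0791% of all genes were), with 6 of 55 at an unadjusted p under 0.05 (8.73% of all genes). The fitted change was nonetheless below 0, that is lower in females, for 46 of the 55 genes, which is 83.6%, whereas 49% of all genes tested lay below 0. The median log2 change was -0.21 against 0.01 over all genes. It was -0.24 for the 34 large and -0.19 for the 21 small subunit genes tested. Over the 31 genes with at least 200 reads in the mean it was -0.24, and 28 of them lay below 0. With the reads of the copies added it was -0.22 over 81 genes, 68 of them below 0.

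The mean log2 RPKM over the 73 genes with reads in every sample showed the same pattern by sample. It was 1.18, 1.18, 1.20, 1.33 and 1.53 in the 5 sacral male samples. In the 7 sacral female samples it ran from 0.79 to 1.24 with a median of 1.05, and 5 of them lay below every sacral male sample. The lumbar male samples had 1.05, 1.05, 1.08, 1.18 and 1.54, and the lumbar female samples ran from 0.93 to 1.33 with a median of 1.09. Mouse 11 had the highest male value at both levels. As genes of 1 sample share their library, this mean is a description of the samples and was not tested.

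**Figure D4:**
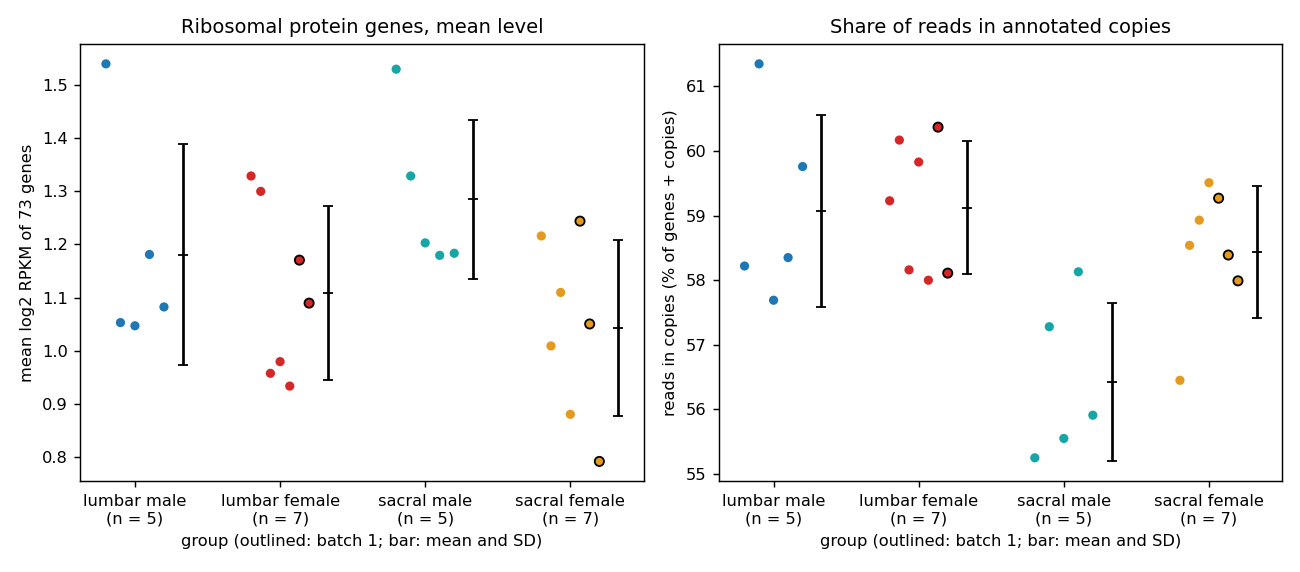
Left, mean log2 RPKM of the 73 ribosomal protein genes with reads in all samples, and right, percent of the joint reads of genes and annotated copies that lay in the copies, with 1 point per sample, outlined for batch 1, and a bar for the group mean and SD. The sacral male samples sit at 1.18 and above on the left, and 4 of the 5 sit at 57.3% or less on the right.

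Several measures moved with the sacral sex comparison, and their part in it was not tested beyond the values given. The counts of markers that follow stand beside 8.73% of all genes at an unadjusted p under 0.05 and 49% below 0. The mitochondrial share of reads was 36.3 ± 4.49% in sacral male (SD, n = 5) and 31.8 ± 3.75% in sacral female samples (SD, n = 7), and with that share as a covariate the median change was -0.18, with 41 of 55 below 0. All males were in batch 2, and within batch 2 alone, with 4 sacral female samples, the median was -0.19, with 43 of 55 below 0. Fibroblast and vascular markers were higher in females in 10 of 10 tested (of 11 listed), with a median change of 0.52, and 0 were called (limma, 3 at an unadjusted p under 0.05). Their summed RPKM was 323.3 to 360.7 in sacral male and 315.9 to 653.5 in sacral female samples, with every marker seen in all samples. Macrophage and blood markers had a median change of -0.58 (8 of 11 tested below 0, 0 called by limma and 0 at an unadjusted p under 0.05), with a summed RPKM of 143.0 to 415.3 in sacral male and 78.7 to 521.0 in sacral female samples. Satellite glia markers, all 8 of which had reads in every sample, had a summed RPKM of 313.1 to 453.0 in sacral male and 231.6 to 310.0 in sacral female samples, which do not overlap. This is a sum, to which abundant markers add most. Ranges of single genes did not overlap for 1.25% of all genes, and no such share was computed for sums. Their median change was -0.05 (6 of 8 below 0, 0 called by limma and 2 at an unadjusted p under 0.05). Sensory neuron markers, all 11 of which had reads in every sample, had a median change of -0.13 (9 of 11 below 0, 0 called by limma and 4 at an unadjusted p under 0.05).

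The share of reads in the copies was lowest in the sacral male samples. It was 55.3%, 55.6%, 55.9%, 57.3% and 58.1% there, 57.7% to 61.4% in lumbar male, 58.0% to 60.4% in lumbar female and 56.5% to 59.5% in sacral female samples. Within mice the share was lower in the sacral than in the lumbar sample in 5 of 5 males (by 2.65 ± 1.56 percentage points, SD) and in 3 of 6 females. These are sums over the chosen genes and were not tested.

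Rpl36al had the smallest p in sacral ganglia, as it had for the level within males. It encodes a near-identical paralogue of the X-linked Rpl36a, a large subunit protein, and lies at chr12:70283718-70285070 (minus strand). The sacral male samples were at 3.89, 3.90, 3.94, 4.04 and 4.06 (log2 RPKM). The lumbar male samples were at 3.37, 3.39, 3.46, 3.67 and 3.77, the lumbar female samples ran from 3.37 to 3.85 with a median of 3.68, and the sacral female samples from 3.25 to 3.81 with a median of 3.53. Each sacral male sample thus lay above each of the other 19 samples, a pattern found in 8 of the 12650 genes tested (0.0632%) and in this gene alone among the 55. The sacral female minus male change was -0.44 ± 0.13 (SE, limma adjusted p = 0.321), and the sacral minus lumbar change in males was 0.44 ± 0.13 (SE, limma adjusted p = 0.134). The level by sex interaction was -0.55 ± 0.17 (SE, limma adjusted p = 0.973). None of these passed the threshold. The coding sequence of Rpl36al has 18 copies in mm9, 81.6% of its windows were copied, and with the reads of its copies added the sacral sex change was -0.37 ± 0.12 (SE, limma adjusted p = 0.361). Rpl36al also had the smallest residual SD of the 55 genes, 0.17, with 662 reads in the mean.

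Rplp1, an acidic protein of the stalk that recruits elongation factors, was at 2.96, 3.17, 3.20, 3.69 and 3.89 in sacral male samples and ran from 2.48 to 2.99 with a median of 2.62 in sacral female samples. Only the highest female sample reached into the male range, and the change was -0.70 ± 0.24 (SE, limma adjusted p = 0.376), or -0.38 ± 0.29 with the copies added. Rps3, at the mRNA entry of the small subunit, was at 2.68, 3.09, 3.15, 3.21 and 3.22 in sacral male samples and ran from 2.13 to 2.92 with a median of 2.34 in sacral female samples. The change was -0.63 ± 0.22 (SE, limma adjusted p = 0.391). Rps3 has 2 copies in mm9, neither in an annotated gene, and 8.1% of its windows were copied. The sacral female and male ranges did not overlap for 2 of the 55 genes, of which Rpl36al is one (1.25% of all genes, and 0.704% with every male sample above every female one).

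The level by sex interaction was called for none of the 55 genes and for 0% of all genes, with 4 of 55 at an unadjusted p under 0.05 (limma, 4.61% of all genes). Its median was -0.16, with 39 of 55 below 0 against 50.2% of all genes. It was -0.07 with the mitochondrial share as a covariate, -0.10 in batch 2 alone and -0.27 without lumbar male 11. It shares its samples with the comparisons above.

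Of the 4 genes on the X chromosome, Rpl39 and Rps4x passed the filter and Rpl10 and Rpl36a did not. The group means of Rps4x were 2.26 (log2 RPKM) in lumbar male, 2.16 in lumbar female, 2.30 in sacral male and 2.09 in sacral female samples. The female minus male change was -0.10 ± 0.24 in lumbar and -0.21 ± 0.25 in sacral ganglia (SE, limma adjusted p = 0.954 and 0.848). With each sample left out it ran from -0.18 (without lumbar male 12) to -0.02 (without lumbar female 23) in lumbar and from -0.38 (without sacral male 15) to -0.08 (without sacral male 11) in sacral ganglia. For Rpl39, a small protein of the exit tunnel, it was -0.02 ± 0.27 and -0.70 ± 0.28 (SE, limma adjusted p = 0.991 and 0.457), and the lumbar value changed sign with several settings. Neither of the tested X-linked genes was called between the sexes.

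Paralogues were compared with the gene they resemble in the same samples. Rpl36al exceeded Rpl36a by 4.23 ± 0.62 (log2 RPKM difference, SD) and did so in 24 of 24 samples. However, 100% of the coding windows of Rpl36a were copied, against 81.6% for Rpl36al. Copies held 57.4% of the joint reads for Rpl36a and 15.7% for Rpl36al. Rps27l, a p53 target gene, exceeded Rps27 by 2.65 ± 0.97 in 24 of 24 samples, although the copies of Rps27 held 97.9% of the reads of gene and copies. With the copies added and coding length as the divisor the order turned, with 4.02 for Rps27l and 5.56 for Rps27 (log2 reads per kilobase of coding sequence, scaled by library size). Rpl22l1, which can stand in for Rpl22, lay below it by -1.36 ± 0.51 (paralogue minus parent) in 24 of 24 samples. Rpl7l1 and Rpl7 differed by less than the spread, with a difference of -0.28 ± 0.71 and Rpl7 higher in 15 of 24. With the copies added Rpl7l1 was at 2.62 and Rpl7 at 3.72, and Rpl36al was at 5.98 and Rpl36a at 3.09 on the same scale. Rpl3l lay below Rpl3 in each of the 5 samples where it had reads, by -2.85 ± 1.60. This rests on few reads, as Rpl3l had 2.1 in the mean of 24 samples. After the authors' batch subtraction its values ran from -5.94 in sacral female 13 to -1.87 in both lumbar female 11 and lumbar female 22. Rpl39l had reads in 1 sample and Rpl10l in none. None of the 4 tested paralogues (Rpl7l1, Rpl22l1, Rpl36al and Rps27l) was called in any comparison, and the smallest p was that of Rpl36al.

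**Figure D5:**
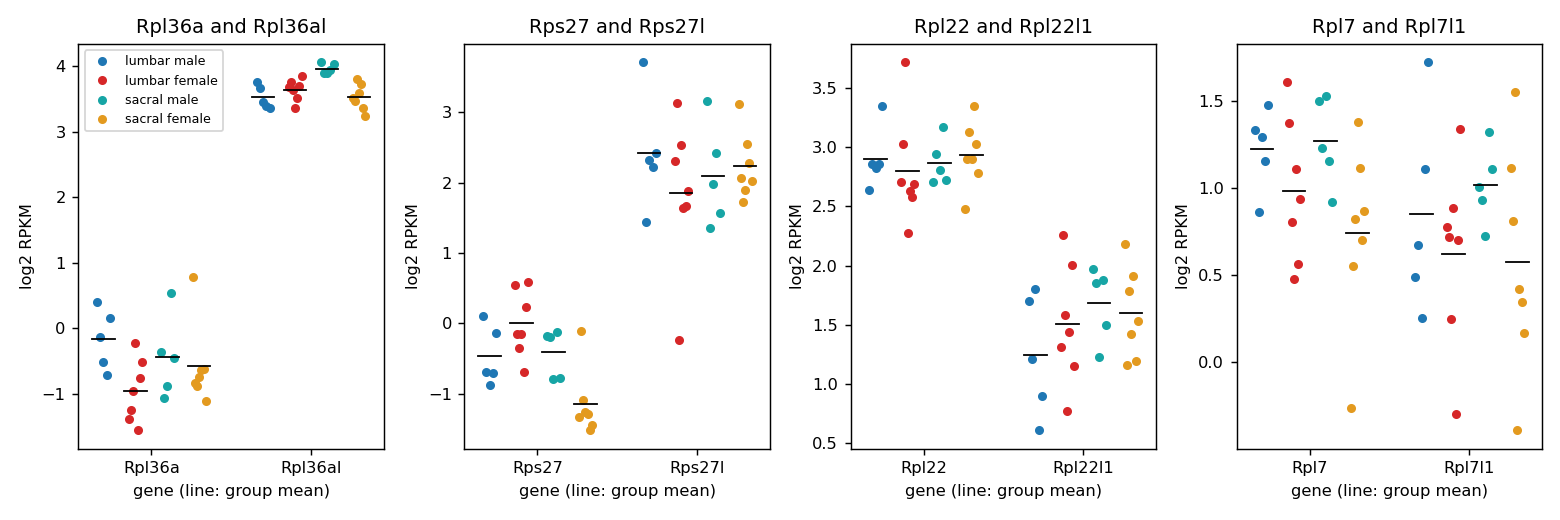
Log2 RPKM of 4 paralogue pairs by sample, coloured by group, with a line at each group mean. Rpl36al and Rps27l sit above their parents by 4.23 and 2.65 on average, Rpl22l1 sits below Rpl22, Rpl7l1 and Rpl7 overlap, and the sacral male samples of Rpl36al stand above the other groups.

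The scatter between samples of a group differed widely among the genes. Among the smallest residual SDs were those of Rpl36al (0.17), Rpl4 (0.19), Rps9 (0.22) and Rps25 (0.24). The 5 largest were those of Rpl23a (1.09), Rps16 (1.01), Rps26 (0.97), Rps14 (0.97) and Rps4y2 (0.88). Counting error alone would give 0.02 for Rpl4 and 0.45 for Rps27. The observed SD was a median of 4.56 times the counting error, 0.99 times for Rps27 and 13.04 times for Rpl5, so the scatter of Rps27 was no larger than its counting error.

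The genes also scattered together to some degree. After removal of group means and batch, the mean pairwise Pearson correlation of the 55 genes over the 24 samples was 0.13, and 0.15 for the 31 deeper genes, against 0.03 over an evenly spaced sample of 1265 genes tested. Of the 55 genes, 49 correlated positively with the mean of the 73 genes, from -0.32 for Rps4y2 to 0.78 for Rps25, which includes each gene in its own mean. The non-members most like that mean were Trappc4 (r = 0.87), H2-K1 (0.82), Gm9385 (0.79), Gm16288 (0.79), Ndufa4 (0.77), Chchd2 (0.77), an unnamed gene (0.77), Uqcr10 (0.75), Sdccag3 (0.74) and Dctn3 (0.73), with Gm9385 a copy of Rpl24 and Gm16288 a copy of Rps25. These are the highest of the genes tested over 24 samples that share libraries and depth, and are given as a description.

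The other parts of the translation machinery were read in the same fits, where 8.73% of all genes had an unadjusted p under 0.05 between sacral females and males. Of 20 TOP-bearing translation factors, such as the elongation factors, none was called in any of the 6 comparisons (limma). Their median sacral female minus male change was -0.19, with 5 at an unadjusted p under 0.05. Of 74 mitochondrial ribosomal protein genes tested none was called, and the same median was -0.14, with 5 at an unadjusted p under 0.05. For 42 ribosome biogenesis genes it was 0.05, with 2 at an unadjusted p under 0.05, and none was called in any comparison. For 20 regulators of the mTOR pathway it was likewise 0.05, with 2 at an unadjusted p under 0.05. The 6 other ribosome-associated and fusion genes tested had -0.21, with 0 called by limma and 0 at an unadjusted p under 0.05. Of the 143 copy genes tested, Rpl30-ps8 (-1.14) and Rpl30-ps10 (-0.59) were called as lower in sacral ganglia over both sexes (limma adjusted p = 0.0478 and 0.0258), where 2.44% of all genes were called. Rpl30 itself had a change of -0.34 (limma adjusted p = 0.546), and gene and copies together -0.43 (limma adjusted p = 0.0633).

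Promoters from RefSeq (GRCm38.p6, 250 bases before to 50 after each start) were found for 62 of the 84 genes, as 74 sequences. The ETS core CTTCCG was present on either strand in 59.5% of them, against 16.9% of all 32851 promoters and 20.8% of the 19881 promoters of genes named in the table. The YY1 core AAGATGG was present on either strand in 16.2% against 6.34% and 6.35%. The TATA sequence TATAAA was present on either strand in 9.46% against 13.6% and 12.2%. A TOP-like run, CTTTC or CTTCC on the sense strand within 10 bases of the start, was present in 24.3% against 6.53% and 6.74%. The last can overlap the ETS core. The runs of Rps27 and Rpl4 are shown as a gene described above for its levels in females and the gene with the highest level of the genes alone, from 10 bases before the start and for 30 bases, with matches in capitals, from chr3:90213629-90213658 (minus strand) and chr9:64173377-64173406 (plus strand).
Rps27: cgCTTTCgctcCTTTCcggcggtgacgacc
Rpl4: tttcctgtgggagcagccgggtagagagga
A match is a run of letters at an annotated start, and its absence for Rpl4 says only that these letters are not in this window.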

How the data were processed

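RNA of 24 samples was amplified by the authors with the Ovation RNA-Seq System v2 kit, made into Nextera XT libraries and sequenced on a HiSeq2500. Per the study's methods, reads were aligned to mm9 with Subread, reads placed uniquely were kept (at most 5 indels and 5 mismatches), and genes of Ensembl 67 were counted with featureCounts. The submitters' processing notes list Subread 1.18 and 1.20.6, R 3.2.1 and 3.2.2, limma 3.26.9 and edgeR 3.12.1. The deposited values are log2 RPKM, made by the authors with voom and TMM, from which they subtracted the batch difference. In the model below the largest batch coefficient over the members was 0. Columns whose header is a bare number were mapped by sample title.

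Blank cells were read as no reads and set to the log2 RPKM of 0.5 reads. The library size (27.6 to 44.6 M) was recovered from the value of 1 read, with at least 96.9% of low values whole within 0.02. Reads are estimates from this, the level and the exon length of GENCODE M1, and depth covers counting error only. Names matched 37205 of the 37620 identifiers.

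The limma model (limma 3.58.1, statmod 1.5.0, R 4.3.3) had a mean for each of 4 groups, a batch term, a random block for mouse and an intensity trend. The estimated mouse correlation was -0.0175. The deviations of the 2 samples of 1 mouse correlated with a median of -0.014 over the 11 mice, against 0.002 for samples of different mice, and mice were paired by the numbers that titles carry, which give more mice than the study's methods name, so the pairing rests on those numbers alone. Tests were two-sided. The fit was tested on simulated data. Copies were found with BLASTN 2.17.0, in Python 3.11.15, and each copy gene was assigned to the member it matched best.

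The genes named were the 5 highest and lowest levels, the paralogue pairs, the X-linked members, the 3 smallest p-values in the pooled level and each sex comparison, and the 5 smallest and largest residual SDs. A few genes that these rules name are not reported here, but they stay in every fit, count and median. The members, lists and rules were chosen with earlier results of these data known. Alternatives covered the block, batch, blank cells, pseudocount, filter, trend, centring, covariates and each sample left out. No source says how many libraries share an extraction. Whether the mice of a group shared a litter is not given in the sources used here.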

Additional observations from a re-analysis of the deposited data

Results flagged for a closer look

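In 136 groups of samples, 5 values lay far from the rest of their group, where chance alone marks about 1 in 20 groups, so the values are given without an explanation. The mean over the 73 ribosomal protein genes was 1.54 in lumbar male 11, the highest of its group, with the next sample at 1.18. Rpl15 was at 3.53 in lumbar male 13, against 2.67 for the next sample. Rpl36a was at 0.79 in sacral female 19, against -0.62 for the next. Rps27 was at -0.11 in sacral female 21, against -1.09. Rps3 was at 2.68 in sacral male 13, the lowest of its group, with the next at 3.09. All are log2 RPKM. Leaving out each sample in turn left the number of ribosomal protein genes called at 0 in every comparison.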

How the results depend on the processing

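No ribosomal protein gene was called under any other setting except 1, Rps27 within females, when limma was fitted without the intensity trend (1 gene called, cause not tested), a gene that passed the filter only through its high group. Over the alternatives the median change between sacral females and males stayed between -0.24 and -0.18, and between -0.28 and -0.17 with each sample left out. That within females ran from -0.11 to -0.02, and that of the pooled level from -0.03 to 0.07. With each sample left out the medians ran from 0.00 to 0.08 for the pooled level, -0.01 to 0.12 in males, -0.15 to -0.05 in females, -0.14 to -0.04 for lumbar sex and -0.27 to -0.12 for the interaction. With no replicate block the medians were 0.03, 0.05, -0.11, -0.08, -0.21 and -0.16 in the order of the comparisons above and 0 genes were called. With a fixed replicate block for mouse the level medians were 0.07, 0.05 and -0.02, the interaction was -0.14, and 0 were called, while the sex comparisons could not be fitted. The members' share of the signal was 0.0671% by reads and 0.2117% without mitochondrial genes, by construction of the totals. The lumbar sex change of Rpl39 was 0.0017 in batch 2 alone, 0.0039 centred on other genes and 0.169 with copies added, and ran from -0.1561 to 0.1042 with a sample left out, above 0 without lumbar male 11 or 12, lumbar female 19, 21 or 23, or sacral female 11. The cause was not tested. Adding copies and keeping genes with at least 200 reads were chosen after seeing the data. The filter was on RPKM and not on reads, and depth limits Rps27, whose scatter was at its counting error.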
